A study of Rattus norvegicus with 9 samples.

Results

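Crabp1, Crabp2, Aldh1a1, Aldh1a2, Adh1c, Rarb, Rxra, Rxrg and Cyp26b1 are 9 genes that carry vitamin A, convert it to retinoic acid, break it down or answer to it. They were followed in lung fibroblasts of rat pups across the period in which septa subdivide the newborn's air sacs. Each gene was found on the array by its symbol in the platform annotation, through probe sets (groups of short probes for a transcript) that carry that symbol alone. These are 12 of the 31042 probe sets tested and 9 of 14217 genes, and the brightest probe set over all arrays stood for a gene with several. Adh1c, Cyp26b1 and Rxrg had 2 probe sets each, and the other 6 genes had 1.

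The samples were 9 pools of freshly isolated cells, 3 from postnatal day 2 (saccular stage), 3 from day 7 (septation in progress) and 3 from day 21 (septation ended). A pool held cells of 5 pups on day 2 and of 4 pups on days 7 and 21, and the 3 pools of a day came from different litters. No treatment, transgene or mutation is named for any group, and the labels state neither strain nor sex. Cells were selected only by sticking to plastic within a short plating, so other adherent lung cells could be present, and cells of a litter were pooled before RNA extraction.

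Retinol reaches tissues in blood and is kept in cells as esters, in the lung in lipid-laden interstitial fibroblasts. Alcohol and retinol dehydrogenases oxidise it to retinal, retinaldehyde dehydrogenases make retinoic acid from retinal, and CYP26 enzymes remove retinoic acid. CRABP proteins bind retinoic acid in the cytoplasm, and in the nucleus it acts through RAR receptors, which sit on DNA as pairs with RXR receptors. Retinoic acid is known in rodents as a signal that supports the formation of alveoli.

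Between days 7 and 21, 5 of the 9 genes fell: the binding protein Crabp1, the enzymes Adh1c and Aldh1a1, and the receptors Rarb and Rxrg. Adh1c was 14.4-fold lower at day 21, Crabp1 7.52-fold, Aldh1a1 4.73-fold, Rxrg 2.89-fold and Rarb 1.86-fold. Between days 2 and 7 only Rxrg passed the test, rising 2.82-fold. The rise and the fall of Rxrg passed in the brighter of its 2 probe sets and not in the other. Crabp2, Aldh1a2, Rxra and Cyp26b1 passed the test in none of the comparisons of the 3 days. A change counted as passing at a limma adjusted p under 0.05 over all probe sets. By that rule 24.4% of all 14217 genes were lower and 13.7% higher at day 21 than at day 7, and 7.02% were higher and 4.41% lower at day 7 than at day 2. Leaving out any 1 array, which also leaves fewer arrays, lowered the share of probe sets that passed in every comparison. At day 7 against day 2 it was 8.94% with all arrays and 4.91% to 6.63% with 1 left out. It was 4.91% and 5.36% without day 2 replicates 2 and 3, and 5.47% and 5.56% without day 7 replicates 1 and 2. At day 21 it went from 30.1% to between 25.8% and 27.6% against day 7, and from 19% to between 12.7% and 17.1% against day 2. Arrays of 2 days did not overlap for 3 of the 9 genes, all higher at day 7 than at day 2 (all genes: 21.1% higher, 11.9% lower). Between days 7 and 21 there was no overlap for 1 gene higher and 5 lower (all genes: 20.5% and 30.7%), and between days 2 and 21 for 0 higher and 4 lower (18.5% and 24.5%). The median log2 change of the 9 genes between days 7 and 21 was -0.89, against -0.01 for all genes. The 9 genes were chosen with earlier results of these data known, so these contrasts with all genes are descriptions and no test.

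Windows of 300 bases around the annotated starts were available for all 9 genes in RefSeq (build GRCr8), each with 250 bases before the start and 50 after it. The Rarb window is shown because it holds the site through which RARs are known to bind the gene's own promoter, a direct repeat of hexamers spaced by 5 bases (DR5). The hexamers are in capitals, and the repeat runs from base 25 to base 41 after the start, on the strand of the gene.
Rarb chr15:11336410-11336438 (+): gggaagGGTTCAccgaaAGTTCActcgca
Searched on both strands, allowing A or G as the opening base of a hexamer, then G, then G or T, then TCA, DR5 was in 0.382% of 33469 windows and, among the 9 genes, in that of Rarb only. The same repeat spaced by 2 bases or by 1 base was in 0.17% and 0.233% of windows and in none of the 9 genes. A match describes letters and shows no binding, and a gene can have other starts than the annotated one.

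The 250 bases before the starts of Aldh1a1 and Aldh1a2 are set side by side because these related enzymes make the same product. Aldh1a1 passed as lower at day 21, and Aldh1a2 passed in no comparison. Capitals mark an octamer, ATGCAAAT, and the pentamer CCAAT, each searched on both strands and chosen after the sequences had been seen.
Aldh1a1 chr1:227537370-227537619 (+): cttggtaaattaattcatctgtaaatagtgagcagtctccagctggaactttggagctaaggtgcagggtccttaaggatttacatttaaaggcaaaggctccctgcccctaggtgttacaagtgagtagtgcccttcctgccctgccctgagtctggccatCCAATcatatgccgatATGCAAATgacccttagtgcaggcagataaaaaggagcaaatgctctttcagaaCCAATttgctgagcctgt
Aldh1a2 chr8:80758391-80758640 (+): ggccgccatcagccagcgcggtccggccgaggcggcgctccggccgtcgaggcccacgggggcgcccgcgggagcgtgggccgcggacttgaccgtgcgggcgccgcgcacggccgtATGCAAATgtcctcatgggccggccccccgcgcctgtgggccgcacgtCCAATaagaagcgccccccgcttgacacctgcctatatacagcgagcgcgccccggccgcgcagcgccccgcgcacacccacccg
The octamer was in 1.78% of all windows and CCAAT in 37.5%, and 0.914% held both. Of the 9 genes, Aldh1a1 and Aldh1a2 held the octamer. They differed in CG dinucleotides, with 1 in the Aldh1a1 window and 47 in that of Aldh1a2, against a median of 7 over all windows.

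The genes with the largest falls also differed in this respect. Adh1c and Crabp1 are shown with each CG in capitals, 2 of them before the start of Adh1c and 21 before that of Crabp1.
Adh1c chr2:229470453-229470702 (+): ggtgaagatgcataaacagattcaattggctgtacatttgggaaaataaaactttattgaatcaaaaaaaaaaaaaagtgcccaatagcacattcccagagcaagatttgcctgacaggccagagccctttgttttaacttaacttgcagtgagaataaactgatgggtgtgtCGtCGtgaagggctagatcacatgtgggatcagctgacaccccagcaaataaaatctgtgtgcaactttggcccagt
Crabp1 chr8:64047181-64047430 (+): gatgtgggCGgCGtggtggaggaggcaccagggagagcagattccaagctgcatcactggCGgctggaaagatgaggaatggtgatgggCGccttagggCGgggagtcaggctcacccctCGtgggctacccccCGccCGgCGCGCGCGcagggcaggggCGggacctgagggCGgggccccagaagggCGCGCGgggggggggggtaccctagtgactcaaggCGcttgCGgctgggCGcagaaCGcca
Over the whole window the 5 genes that fell had 1 (Aldh1a1), 3 (Adh1c), 21 (Rarb), 21 (Rxrg) and 26 (Crabp1) CG dinucleotides. The 4 that did not pass had 12 (Cyp26b1), 14 (Crabp2), 47 (Aldh1a2) and 62 (Rxra). The ranges of the 2 sets of windows overlapped.

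All levels below are log2 of the deposited intensity, given in the order of replicates 1, 2 and 3 of a day. Levels of different probe sets are not compared with each other. The 25th percentile of all values, log2 4.25, is called the low end, where background makes up much of a signal and folds are compressed. Errors of changes are standard errors (SE) from limma with n = 3 arrays per day. Fibroblast identity was checked with 10 general fibroblast markers, such as Col1a1, Dcn and Pdgfra. All 10 lay above the low end on every day, and their mean was log2 10.25 to 10.62 on each array. Between days 7 and 21, the interval of the retinoid falls, 2 of the 10 were higher and 2 lower. Pdgfra averaged 9.15 on day 7 and 7.75 on day 21, Fbln1 8.54 and 6.88, and Dcn 10.66 and 11.95. Array medians of all probe sets were log2 5.24 to 5.66, and the number of arrays limits the precision of every value.

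**Figure D1:**
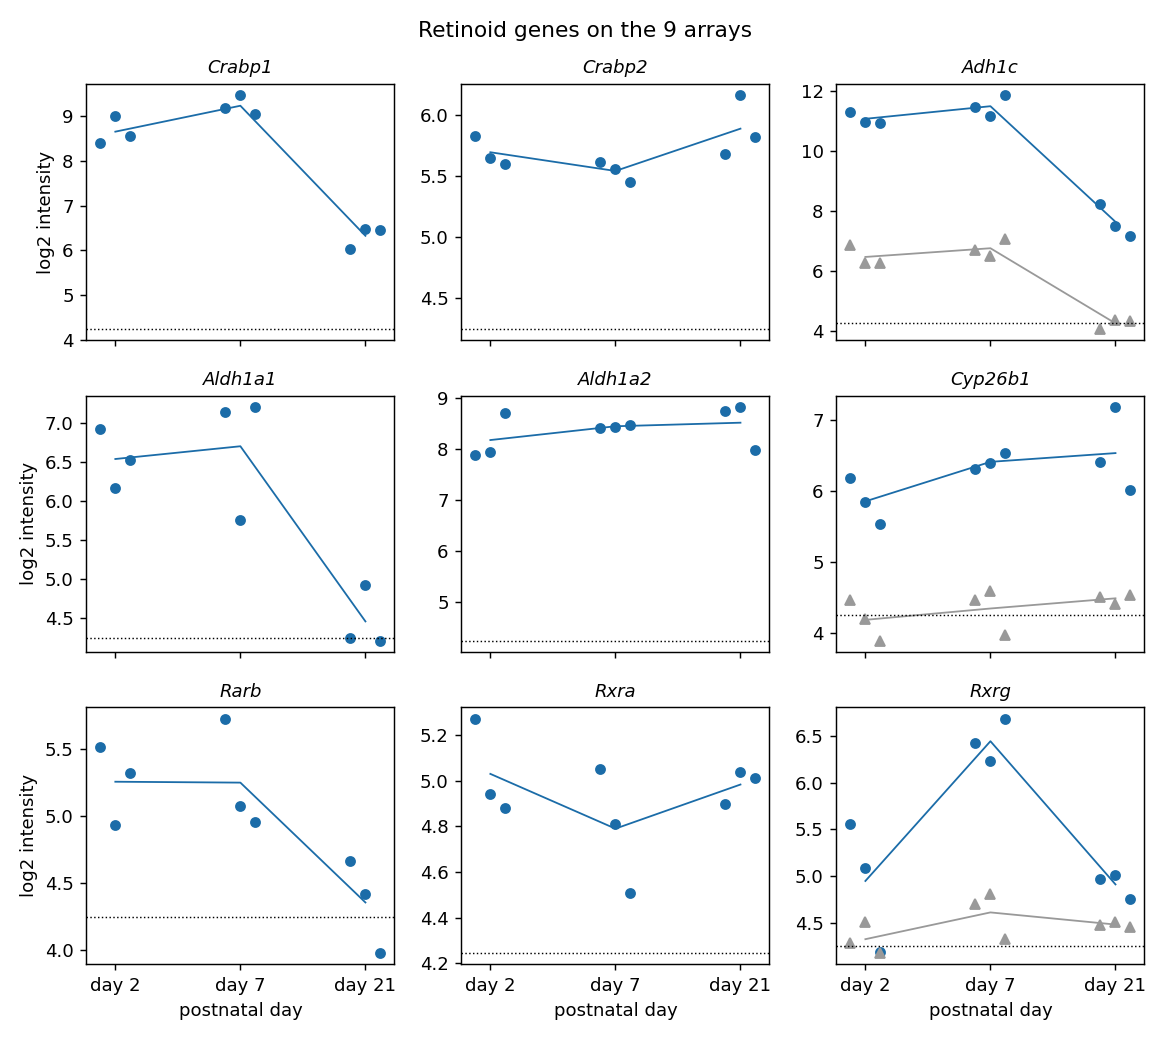
Log2 intensity (y axis) of the 9 retinoid genes by postnatal day (x axis). Each point is an array, in the order of replicates 1 to 3, lines join day means, blue circles are the brightest probe set of a gene, grey triangles its other probe set, and the dotted line is the low end of all values (log2 4.25); y axes differ between panels. Crabp1, Adh1c, Aldh1a1 and Rarb drop at day 21, Rxrg peaks at day 7, and the remaining genes show no drop at day 21.

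Crabp1, a cytoplasmic carrier of retinoic acid found in embryonic mesenchyme, was the binding protein whose change passed. Its levels were 8.40, 9.0 and 8.57 on day 2, 9.19, 9.47 and 9.05 on day 7, and 6.04, 6.48 and 6.46 on day 21. Every day 21 array was below every array of days 2 and 7, and the 3 day 7 arrays were all above those of day 2. The fall from day 7 to day 21 was -2.91 ± 0.20 (limma adjusted p = 1.24e-06), the 85th largest of 14217 genes. From day 2 to day 21 the change was -2.33 ± 0.20 (5.02-fold lower, adjusted p = 1.82e-05). The difference between days 7 and 2 was 0.58 ± 0.20 and did not pass (adjusted p = 0.101), although the arrays did not overlap.

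Crabp2, the related carrier that is known to hand retinoic acid to RARs, lay in a narrow range. It was at 5.83, 5.65 and 5.60 on day 2, at 5.61, 5.56 and 5.45 on day 7, and at 5.68, 6.16 and 5.82 on day 21. The day 21 arrays were all above those of day 7, the highest being replicate 2, and overlapped those of day 2. The change from day 7 to day 21 was 0.35 ± 0.16 (adjusted p = 0.135), with a 95% interval of -0.01 to 0.70. After a further quantile normalization it was 0.51 and passed (adjusted p = 0.0123). From day 2 to day 21 the change was 0.19 ± 0.16 (95% interval -0.16 to 0.55).

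Adh1c, a class I alcohol dehydrogenase that oxidises retinol to retinal among other alcohols, had the largest fall of the 9. Its brighter probe set was at 11.30, 10.96 and 10.91 on day 2, at 11.45, 11.14 and 11.84 on day 7, and at 8.23, 7.48 and 7.16 on day 21. All day 21 arrays were far below the earlier ones, while those of days 2 and 7 overlapped. The fall was -3.85 ± 0.27 from day 7 (adjusted p = 1.28e-06) and -3.43 ± 0.27 from day 2 (10.8-fold lower, adjusted p = 8.64e-06), placed 20th and 16th among the falls of all genes. From day 2 to day 7 the change was 0.42 ± 0.27 (adjusted p = 0.415).

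The other Adh1c probe set gave the same direction at a dimmer signal. It read 6.86, 6.25 and 6.25 on day 2, 6.69, 6.48 and 7.06 on day 7, and 4.06, 4.34 and 4.32 on day 21, where it sat at the low end. Its fall from day 7 was -2.50 ± 0.21 (5.68-fold lower, adjusted p = 4.78e-06), smaller than that of the brighter set, with a day 21 level open to background.

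Aldh1a1, a retinaldehyde dehydrogenase that makes retinoic acid, fell to the low end. Its levels were 6.92, 6.17 and 6.52 on day 2, 7.14, 5.76 and 7.20 on day 7, and 4.24, 4.92 and 4.21 on day 21. Day 7 was uneven, with replicate 2 below all day 2 arrays, but every day 21 array was lower than every earlier one. The fall was -2.24 ± 0.36 from day 7 (adjusted p = 0.000469) and -2.08 ± 0.36 from day 2 (4.24-fold lower, adjusted p = 0.00197). Because 2 of the 3 day 21 values were below log2 4.25, the size of the fall is open to background. Days 2 and 7 differed by 0.16 ± 0.36 (adjusted p = 0.868).

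Aldh1a2, the retinaldehyde dehydrogenase that supplies most retinoic acid in the embryo, did not share that fall. It was at 7.89, 7.94 and 8.70 on day 2, at 8.42, 8.44 and 8.48 on day 7, and at 8.75, 8.82 and 7.98 on day 21. The arrays of all 3 days overlapped, and the spread within days 2 and 21 (SD 0.45 and 0.47) was larger than on day 7 (SD 0.03). The change from day 7 to day 21 was 0.07 ± 0.26 (adjusted p = 0.875), and its 95% interval, -0.49 to 0.63, did not reach the size of the Aldh1a1 fall. From day 2 to day 21 it was 0.34 ± 0.26 (adjusted p = 0.384). Whether the changes of Aldh1a1 and Aldh1a2 differ from each other was not tested.

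Markers of mesothelium, the lining of the lung surface, which is known to express Aldh1a2, are set beside the gene. The mean of 4 measured mesothelial markers (Msln, Lrrn4, Wt1 and Upk1b, of 6 listed, none below the low end) was 6.34, 6.52 and 6.60 on day 2 and 6.90, 7.11 and 5.87 on day 21. Aldh1a2 ran in the same order over the replicates of each of these days, but an order of 3 arrays is easily shared. The macrophage mean had it on day 2 (9.06, 9.25 and 9.38). The general fibroblast mean had it on day 21 (10.52, 10.59 and 10.25). The dendritic mean did not have it on day 21 (8.61, 8.60 and 8.82). On day 7 the mesothelial mean was lower, at 5.12, 6.17 and 5.32, where Aldh1a2 stayed within 0.06. Of 6 measured dendritic cell markers, 5 were higher at day 21 than at day 7, with array means of 8.60 to 8.82 against 6.20 to 6.95. The largest rises in that interval were those of RT1-Db1 (6.58 to 10.91), Cd74 (9.15 to 12.45) and Itgax (6.91 to 9.50). Flt3 went from 4.73 to 5.15, and Clec9a averaged 3.48, 3.52 and 4.03 on days 2, 7 and 21, below the low end. The part of either cell type in the Aldh1a2 level was not tested.

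Cyp26b1, which oxidises retinoic acid for removal, passed in none of the comparisons. Its brighter probe set was at 6.18, 5.84 and 5.54 on day 2, at 6.31, 6.39 and 6.53 on day 7, and at 6.41, 7.18 and 6.01 on day 21. Day 7 lay above day 2 on all arrays, and day 21, with replicate 2 highest, overlapped both. The change from day 2 to day 21 was 0.68 ± 0.27 (adjusted p = 0.098), and without day 21 replicate 3 it was 0.94 and passed (adjusted p = 0.0322). It also passed after a further quantile normalization, at 0.76 (adjusted p = 0.0405). The other probe set was at 3.89 to 4.59 on all 9 arrays, around the low end, and changed by 0.30 ± 0.20 over the same days (adjusted p = 0.31).

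Rarb, a retinoic acid receptor whose own gene retinoic acid is known to induce through the repeat shown above, had a small fall. It was at 5.51, 4.93 and 5.32 on day 2, at 5.72, 5.07 and 4.95 on day 7, and at 4.66, 4.42 and 3.98 on day 21. No day 21 array reached any earlier array, and days 2 and 7 overlapped almost fully (change -0.01 ± 0.24, adjusted p = 0.992). The fall was -0.89 ± 0.24 from day 7 (adjusted p = 0.015) and -0.90 ± 0.24 from day 2 (1.87-fold lower, adjusted p = 0.0236). The day 21 levels lay around the low end.

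The Rarb calls were lost in several fits with 1 array left out, which also leaves fewer arrays. With day 7 replicate 1 left out, the fall from day 7 was -0.66 (adjusted p = 0.0629), and with day 21 replicate 3 left out it was -0.71 (adjusted p = 0.0659). From day 2 the change was -0.77 when day 2 replicate 1 was left out (adjusted p = 0.082), and -0.87 when day 2 replicate 3 was (adjusted p = 0.0632). Omitting day 21 replicate 2 gave -0.94 (adjusted p = 0.0524), and omitting day 21 replicate 3 gave -0.72 (adjusted p = 0.0934).

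Rxra, a common partner receptor of RARs, passed in no comparison. It was at 5.27, 4.94 and 4.88 on day 2, at 5.05, 4.81 and 4.51 on day 7, and at 4.90, 5.04 and 5.01 on day 21. The arrays of the 3 days overlapped, the 95% interval of the change from day 7 to day 21 being -0.19 to 0.58 and that from day 2 to day 21 -0.43 to 0.33. A single probe set near the low end measured it, so small changes may be compressed.

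Rxrg, a partner receptor with a more restricted expression, was the one gene of the 9 whose rise to day 7 passed. Its brighter probe set was at 5.56, 5.09 and 4.19 on day 2, at 6.42, 6.23 and 6.68 on day 7, and at 4.97, 5.01 and 4.75 on day 21. All day 7 arrays stood above the others, and day 2 was uneven, with replicate 3 below the low end. The rise to day 7 was 1.5 ± 0.28 (adjusted p = 0.00779), the 22nd largest of 14217 genes, and the fall to day 21 was -1.53 ± 0.28 (adjusted p = 0.00134). Days 21 and 2 differed by -0.04 ± 0.28 (adjusted p = 0.947).

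The other Rxrg probe set did not show the peak. It read 4.28, 4.51 and 4.18 on day 2, 4.70, 4.81 and 4.32 on day 7, and 4.48, 4.51 and 4.45 on day 21, close to the low end throughout. Its changes were 0.29 ± 0.17 to day 7 (adjusted p = 0.361) and -0.13 ± 0.17 to day 21 (adjusted p = 0.611). The Rxrg result therefore rests on 1 of 2 probe sets.

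**Figure D2:**
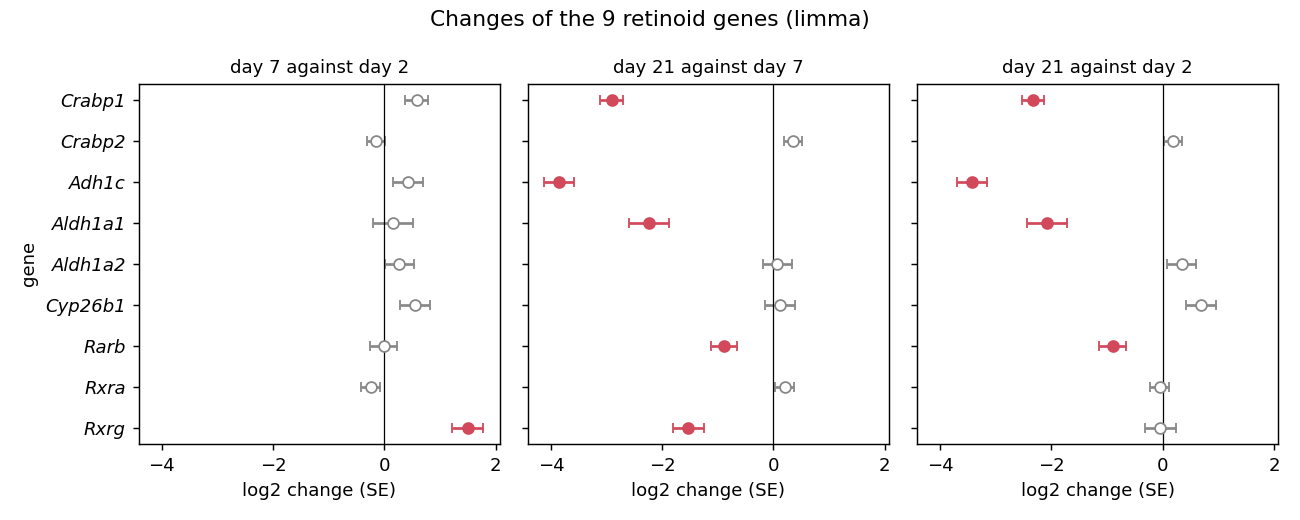
Log2 change (x axis) of the 9 retinoid genes (y axis) in the comparisons of the 3 days. Points are limma estimates from 3 arrays per day, bars are SE, filled red points passed an adjusted p under 0.05 and open grey points did not. Rxrg is the only gene that passed at day 7 against day 2, 5 genes are lower at day 21 than at day 7, and 4 of these are also lower at day 21 than at day 2.

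From day 2 to day 21, 4 of the 9 genes fell (Adh1c, Crabp1, Aldh1a1 and Rarb) and none rose, with 1 higher at an unadjusted p under 0.05 in limma (Cyp26b1). Of all genes, 15.3% were lower and 8.8% higher by the same rule. The comparisons share their day samples, so the falls from days 2 and 7 to day 21 rest on the same day 21 arrays. The order of levels was the same for Crabp1, Adh1c and Aldh1a1, highest on day 7, then day 2, then day 21. Of the steps in that order, the one between days 7 and 2 did not pass for any of these 3 genes. With Rarb, days 2 and 7 did not differ beyond their spread and day 21 was lowest, and with Rxrg, day 7 was highest and the other two days did not differ beyond their spread.

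Markers of other cells moved over the same days. In RNA from whole pools, fewer cells of a type cannot be told apart from less RNA per cell. Of 11 measured macrophage markers (14 listed), 10 were higher at day 21 than at day 7 and 7 were lower at day 7 than at day 2. Their mean was 9.06 to 9.38 on day 2, 7.35 to 8.07 on day 7 and 9.38 to 9.81 on day 21, and 1 of the 11, Cd163, averaged below the low end on each day. Of 7 measured endothelial markers (8 listed), 6 were lower at day 21 than at day 7, with array means of 6.13 to 6.58, 6.86 to 7.04 and 5.53 to 6.06 on the 3 days. Emcn, among them, averaged below the low end on day 21. The mean of 6 pericyte markers was 5.75 to 5.76, 6.19 to 6.32 and 5.83 to 6.08, highest on day 7, with 1 marker higher at day 7 than at day 2, 3 lower and 1 higher at day 21 than at day 7, and none below the low end. Cartilage markers (5 measured) averaged 6.98 to 7.92, 4.21 to 4.88 and 6.40 to 8.11, with Col9a1 and Col9a3 averaging below the low end on day 7. Of 5 mast cell markers, 4 were higher at day 21 than on each earlier day. The part of endothelial cells, pericytes, cartilage and mast cells in these results was not tested.

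Markers of lipid-storing fibroblasts, the cells in which the lung keeps retinyl esters, moved in both directions. Their mean was 8.29 to 8.54, 7.61 to 7.98 and 7.87 to 8.39 on the arrays of days 2, 7 and 21. Of 10 measured, 5 were lower and 0 higher at day 7 than at day 2, where 1 of the 9 retinoid genes was higher and 0 lower. From day 7 to day 21, 5 were higher and 3 lower. Plin2, which coats lipid droplets, averaged 12, 10.94 and 11.85 on the 3 days, Fabp4, a fatty acid carrier, 11.18, 7.87 and 10.44, and Lpl, a lipoprotein lipase, 10.56, 8.67 and 10.64. Tcf21, a transcription factor of these fibroblasts, averaged 9.23, 10.12 and 7.68, and Fgf10, a growth factor for epithelium, 5.69, 5.57 and 4.26. Plin2, Fabp4, Lpl, Cd36 and Pparg are also expressed by macrophages, whose markers had the same low point on day 7, and this overlap was not tested. Myofibroblast markers (8 measured) had array means of 9.18 to 9.84. Of these, 2 were higher and 1 lower at day 21 than at day 7, and 2 were higher and 2 lower at day 21 than at day 2.

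Epithelial, neural and erythroid markers were also measured. Of 10 alveolar epithelial markers, 3 were higher and 2 lower at day 21 than at day 7. Of 4 airway epithelial markers, 2 were higher and 0 lower there, and 1 was lower and 0 higher at day 7 than at day 2. The airway marker Scgb1a1 averaged 10.01, 7.65 and 10.81 on days 2, 7 and 21, and the alveolar marker Sftpc 8.91, 9.37 and 8.18. The part of epithelial cells in these results was not tested. None of 3 Schwann and neural markers or 2 erythroid markers passed between those days, the erythroid array means being 7.68 to 9.32 over all arrays.

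**Figure D3:**
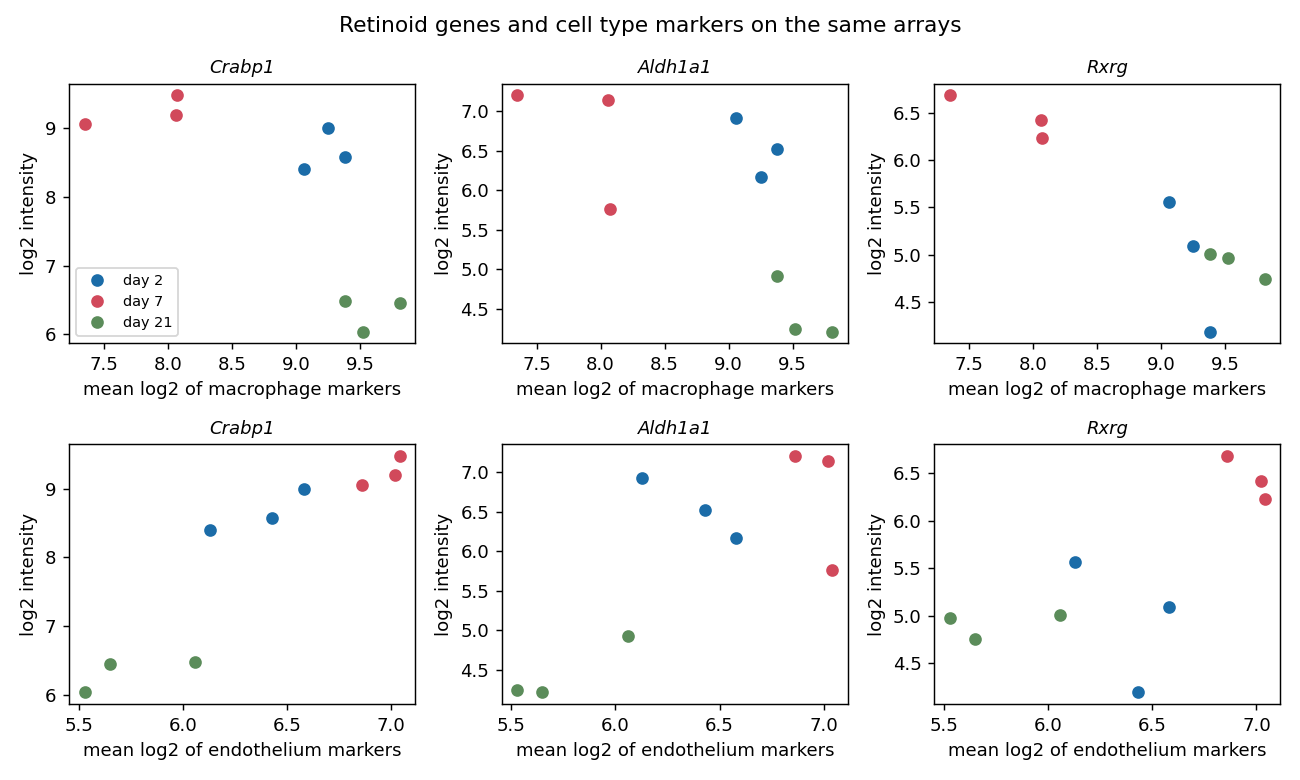
Log2 intensity of Crabp1, Aldh1a1 and Rxrg (y axes) against the mean log2 level of 11 macrophage markers (upper row, x axis) and 7 endothelial markers (lower row, x axis) on the same array. Each point is an array coloured by day. The macrophage mean is 7.35 to 8.07 on day 7, lower than on days 2 and 21, and at macrophage means of 9.06 to 9.81 Crabp1 was at 8.40 to 9.0 on day 2 and at 6.04 to 6.48 on day 21.

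Between days 2 and 21 the macrophage mean differed less than between either and day 7, and the falls of Crabp1, Adh1c and Aldh1a1 passed with that mean as a covariate. They were -2.46 ± 0.23 (adjusted p = 0.000134), -3.12 ± 0.26 (adjusted p = 8.21e-05) and -1.68 ± 0.36 (adjusted p = 0.0155). The Rarb fall was -0.94 ± 0.30 and missed the threshold (adjusted p = 0.0713). Cyp26b1 passed as higher at day 21 (0.99 ± 0.27, adjusted p = 0.0408). The slope of the covariate rests on differences among the 3 arrays within each day, and the fit holds macrophage markers only. At day 21 against day 2, 5 of 6 dendritic and 4 of 5 mast cell markers were higher. Of 7 endothelial markers, 3 were lower and 1 higher. The part of these cells in the falls was not tested.

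Between days 7 and 21 no fall passed with the covariate, where 0.0322% of probe sets passed in all. Crabp1 was at -3.58 ± 0.63 (adjusted p = 0.104), Adh1c at -2.28 ± 0.73 (adjusted p = 0.349) and Rarb at -1.09 ± 0.82 (adjusted p = 0.698). The values of Aldh1a1 and Rxrg went to near 0, at -0.16 ± 1.00 and 0.07 ± 0.80. The Rxrg rise from day 2 to day 7 was 0.20 ± 0.66 (adjusted p = 0.929), in a comparison where 0% of probe sets passed. The macrophage mean and the day overlap strongly in these comparisons, so their parts cannot be told apart.

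Around the 9 genes, a list of 95 retinoid pathway genes in 9 roles had 75 measured members, the 9 included. At day 7 against day 2, 8 were higher, 4 lower and 63 did not pass, against 7.02% of all genes higher and 4.41% lower. With each array centred on its median, 4 were higher and 5 lower, so that the share of higher calls went from 66.7% to 44.4%. At day 21 against day 7, 11 were higher, 19 lower and 45 did not pass, against 13.7% of all genes higher and 24.4% lower, so the list's shares were near the background. Of the list's calls 36.7% were higher as deposited and 44.8% after centring. At day 21 against day 2, 11 were higher and 14 lower, against 8.8% of all genes higher and 15.3% lower. The list's median changes were 0.11, 0.10 and 0.19, against 0.07, -0.01 and 0.02 for all genes.

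**Figure D4:**
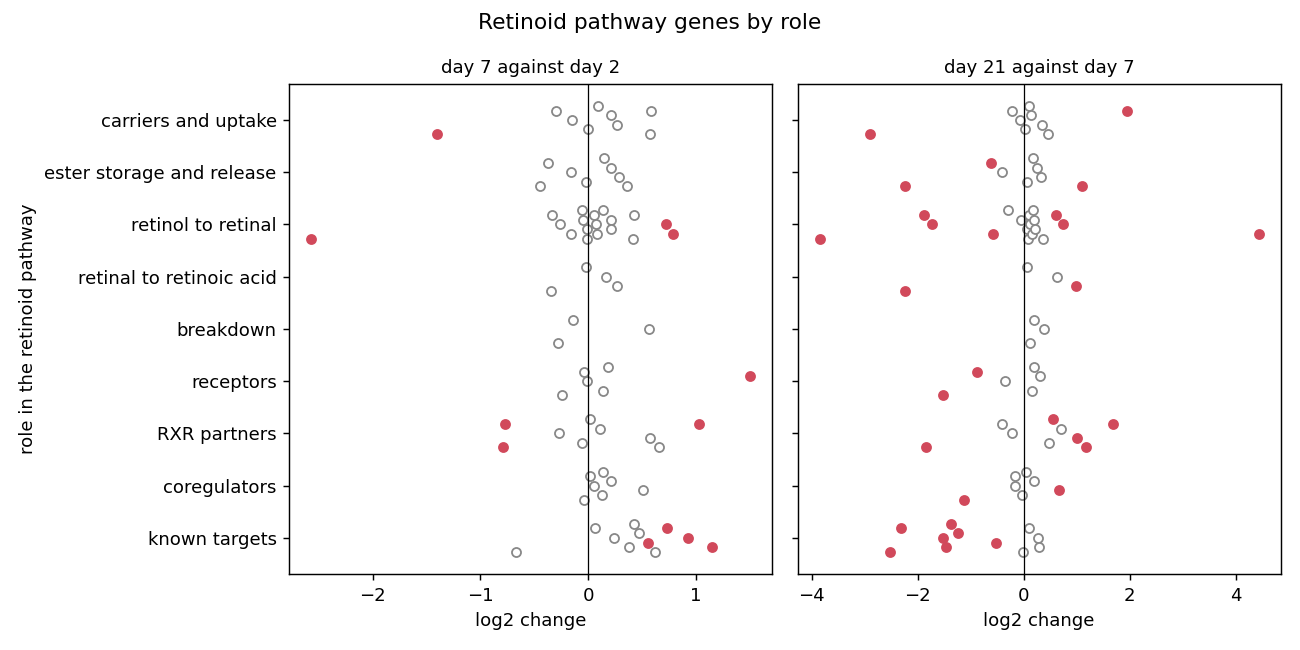
Log2 change (x axis) of 75 measured retinoid pathway genes by role (y axis), for day 7 against day 2 on the left and day 21 against day 7 on the right, on different x scales. Each point is a gene, spread vertically for legibility, with filled red points for an adjusted p under 0.05 in limma and open grey points for the rest. Among 11 known targets, 7 are lower at day 21 than at day 7, and the largest rise is that of Akr1b8.

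Of 9 measured carriers, Fabp5 was the only one called besides Crabp1. It is a fatty acid binding protein that can carry retinoic acid to PPAR-delta and is also abundant in macrophages. Its level fell by 1.40 on the log2 scale to day 7 (adjusted p = 0.00443) and rose by 1.95 to day 21 (adjusted p = 6.1e-05). This was the same direction as the macrophage mean in both intervals, and the part of macrophages was not tested. Of 8 genes of ester storage and release, Ces1d, a carboxylesterase that can hydrolyse retinyl esters, changed by -2.24 from day 7 to day 21 (adjusted p = 5.43e-05) and by -2.61 from day 2 (adjusted p = 5.83e-05). Dgat1, which can esterify retinol, fell by 0.62 from day 7 (adjusted p = 0.0187), and the lipase Pnpla2 rose by 1.10 (adjusted p = 0.000365). Lrat, the main retinol esterifying enzyme of storing cells, was at 3.92 to 5.24 over all arrays and was not called.

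Among 18 measured enzymes that interconvert retinol and retinal, 4 fell and 3 rose from day 7 to day 21, near the shares of all genes (24.4% lower, 13.7% higher). Besides Adh1c, Dhrs4 fell by 1.88 (adjusted p = 4.91e-06), a dehydrogenase/reductase that acts on retinal, and Adh5 fell by 1.74 (adjusted p = 6.01e-06), a class III enzyme known mainly for formaldehyde removal. Both had risen to day 7, by 0.79 (adjusted p = 0.00963) and 0.72 (adjusted p = 0.0123), and the last to fall at day 21 was Rdh14, which fell by 0.58 (adjusted p = 0.0157). Adh5 and Adh1c belong to a single cluster of alcohol dehydrogenase genes in the rat assembly GRCr8, in the order Adh7, Adh1c, Adh6a, Adh6, Adh4 and Adh5. Adh7 of that cluster rose from 3.59 to 4.19 (adjusted p = 0.0231), below the low end on both days, and Adh4 was at 3.18 to 3.63 on all arrays.

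The 3 that rose at day 21 were Akr1b8, Dhrs9 and Adh7. Akr1b8, an aldo-keto reductase of a family that reduces retinal, fell by 2.57 to day 7 (adjusted p = 0.000114) and rose by 4.43 to day 21 (adjusted p = 1.13e-07). Its arrays were at 9.43, 10.21 and 10.01, then 7.27, 7.39 and 7.30, then 11.54, 11.85 and 11.85, again the direction of the macrophage mean in both intervals. From day 2 to day 21 Akr1b8 was higher by 1.86 (adjusted p = 8.49e-05), where 1 of 11 macrophage markers was higher. The part of macrophages in its level was not tested. Dhrs9 rose by 0.74 (adjusted p = 0.0158). Rdh10, the retinol dehydrogenase needed for embryonic retinoic acid, was at 6.52 to 7.15 on all arrays and not called.

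Of 4 genes listed for the step from retinal to retinoic acid, Cyp1b1, a cytochrome that can also oxidise retinal, rose by 0.99 at day 21 against day 7 (adjusted p = 0.000905). Aldh1a3, another retinaldehyde dehydrogenase, was at 6.61 to 6.94 on the arrays of days 2 and 7. On those of day 21 it was at 7.87, 7.40 and 6.92, all above day 7. Its change from day 7 to day 21, 0.62 ± 0.22, just missed the threshold (limma adjusted p = 0.0502), and Aldh1a3 was called in no comparison. In this role Aldh1a1 was thus the one gene that fell. Of 3 breakdown genes none was called in any comparison by limma, with Cyp26b1 the only one above the low end on average. At an unadjusted p under 0.05, Cyp26b1 was higher at day 21 than at day 2, and Cyp2s1 was higher at day 21 than at day 7, by 0.38 ± 0.15, at levels below the low end.

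The 6 receptors were all measured, and Rara, Rarg and Rxrb were called in no comparison. They lay at 5.91 to 7.01, 5.69 to 6.63 and 5.69 to 6.56 over the 9 arrays. Of 9 receptors that pair with RXRs, 4 were higher and 1 lower at day 21 than at day 7, against 13.7% and 24.4% of all genes. The thyroid hormone receptors went opposite ways. Thra rose by 1.03 to day 7 (adjusted p = 0.00183) and fell by 1.85 to day 21 (adjusted p = 2.57e-06). Thrb fell by 0.77 (adjusted p = 0.0131) and then rose by 1.68 (adjusted p = 1.42e-05). Pparg, the regulator of fat cell and lipid-storing fibroblast genes, which macrophages also express, fell by 0.79 and then rose by 1.17 (adjusted p = 0.0181 and 0.000343). Nr1h4 was higher at day 21 than at day 2 by 1.14 (adjusted p = 0.0085), from a day 2 mean of 3.76, below the low end. Nr1h3, an oxysterol receptor of macrophages and other cells, rose by 1.01 from day 7 to day 21 (adjusted p = 0.00352). Of 7 coregulators, Ncoa1 fell by 1.13 (adjusted p = 0.00147) and Ncoa3 rose by 0.66 (adjusted p = 0.0226) between days 7 and 21.

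Genes known as retinoic acid targets in embryos or cell lines had 11 measured of 18 listed. At day 7 against day 2, 4 were higher and 0 lower by limma, with 7 and 1 at an unadjusted p under 0.05. Of all 14217 genes, 7.02% were higher and 4.41% lower there, with 2451 and 1354 genes at an unadjusted p under 0.05. At day 21 against day 7, 7 were lower and 0 higher, with 7 and 0 at an unadjusted p under 0.05. In that interval 24.4% of all genes were lower and 13.7% higher, with 4126 and 2619 of 14217 at an unadjusted p under 0.05. The role's median change was -1.24 against -0.01 for all genes. This list too was chosen with earlier results of these data known, so the contrast is a description. Nr2f1, an orphan receptor of developing mesenchyme, rose by 1.15 (adjusted p = 0.0474) and fell by 2.53 (adjusted p = 9.79e-05). Its arrays were at 6.29, 6.07 and 5.23 on day 2, 7.38, 6.88 and 6.78 on day 7, and 4.30, 5.15 and 3.99 on day 21, with no overlap between days.

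Its relative Nr2f2 and the homeobox gene Hoxa5 also passed in both intervals. Nr2f2 rose by 0.73 (adjusted p = 0.0152) and fell by 1.37 (adjusted p = 4.97e-05), and Hoxa5, needed for normal lung development, rose by 0.92 (adjusted p = 0.00971) and fell by 1.24 (adjusted p = 0.000256). At day 21 against day 2, Nr2f1 was lower (-1.38, adjusted p = 0.0116), as was Nr2f2 (-0.64, adjusted p = 0.016), whereas Hoxa5 did not pass (-0.33, adjusted p = 0.237). The homeobox cofactors Meis2 and Meis1 changed by -2.32 (adjusted p = 1.63e-05) and -1.53 (adjusted p = 0.00011) between days 7 and 21. Hoxb4 fell by 1.47 (adjusted p = 5.35e-05) and the crosslinking enzyme Tgm2 fell by 0.53 (adjusted p = 0.0307) in that interval. Rarres2, the secreted protein chemerin, rose by 0.55 to day 7 (adjusted p = 0.0353) and stayed there, at 9.32 on day 7 and 9.31 on day 21. Genes counted in other roles that retinoic acid is also known to induce did not pass in that interval, with changes of 0.12 for Cyp26b1, 0.20 for Cyp26a1, 0.16 for Dhrs3, 0.10 for Stra6, 0.35 for Crabp2 and 0.25 for Lrat, while Rarb fell. The known targets answer to many signals, and endothelial markers fell in the same interval as the 7 that fell, whose part was not tested.

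For each of the 5 genes that changed, the 3 genes with the most similar profile are given by Pearson's r over the 9 arrays, as a description, since the arrays of a day share their age. Crabp1 was closest to Dynlt1 (r = 0.994), Tro (0.992) and Isca1 (0.992). Adh1c was closest to the elastic fibre associated gene Mfap4 (0.997), the imprinted cell cycle inhibitor Cdkn1c (0.996) and the lysophosphatidic acid receptor gene Lpar4 (0.994). Mfap4 itself averaged 12.87, 13.18 and 10.79 on days 2, 7 and 21. Aldh1a1 was closest to Phospho2 (0.974), Rnf169 (0.970) and Cspg4 (0.969), a pericyte marker that averaged 5.26, 5.40 and 4.65. Rarb was closest to Zyg11b (0.960), Acadsb (0.948) and Map3k4 (0.938), and Rxrg to Lrrc14 (0.986), Gbe1 (0.982) and Slc16a10 (0.979). Among the 5 genes themselves, r was 0.74 to 0.94 between any pair of Crabp1, Adh1c, Aldh1a1 and Rarb. Between Rxrg and each of these it was 0.40 to 0.58.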

How the data were processed

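Pools of rat lung fibroblasts were profiled on single-colour Affymetrix arrays, 3 litters per day. The authors deposited 1 intensity per probe set and array, and the submitters' processing notes name RMA and affy, with no version. Filters and the probe set definitions used are not stated in the labels. The deposited values were linear, so log2 was taken. RMA, as usually run, returns log2 values of evened-out distributions. The array medians differed (log2 5.24 to 5.66), so the exact transformation of the deposited values is unknown, and some calls change with further normalization or centring. Background treatment can compress changes of small signals.

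Of 31099 probe sets, 57 AFFX controls were left out. A linear model (R 4.3.3, limma 3.58.1, eBayes) was fitted to 31042 probe sets on 9 arrays with a mean per day, and 6 residual degrees of freedom plus a prior of 5.69, with two-sided tests and Benjamini-Hochberg adjustment per comparison. The p-values measure spread between litter pools. Symbols came from the platform annotation (20826 probe sets with 1, 436 with several, 9780 with none). Of 14217 genes, 14167 were found by Entrez number in a RefSeq gene table and 0 symbols changed.

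The members, the pathway list and the 14 marker lists were chosen with earlier results of these data known. All members were described, and per role up to 3 further called genes with the largest change in a comparison were named. Genes named without a call (Lrat, Rdh10, Dhrs3, Stra6, Cyp26a1, Cyp2s1, Adh4, Aldh1a3, Rara, Rarg, Rxrb), single markers, and Rdh14, Adh7, Dhrs9, Nr1h3, Hoxb4, Tgm2 and Rarres2, were picked once their values were known. Alternatives covered scale, normalization, centring, a dim filter, eBayes settings, the litter number as a block, the arrays fitted, the probe set, single arrays and a macrophage covariate. The fit was tested on simulated data.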

Additional observations from a re-analysis of the deposited data

How the results depend on the processing

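All 5 falls from day 7 to day 21 and all 4 from day 2 to day 21 kept their direction under every alternative, except that of Rxrg from day 7, whose value was 0.07 with the macrophage covariate. The covariate left 0 of the 9 genes higher at day 7 than at day 2 and 0 lower at day 21 than at day 7, and 1 higher at day 21 than at day 2. For the pathway list it left 0 higher and 0 lower at day 7 against day 2 and 0 higher and 0 lower at day 21 against day 7. With it, changes that had not passed turned sign: at day 7 against day 2 Aldh1a1 to -1.51, Adh1c to -0.84, Rarb to 0.15, Rxra to 0.14 and Cyp26b1 to -0.69, at day 21 against day 7 Rxra to -0.29, and at day 21 against day 2 Rxrg to 0.28. After a further quantile normalization 1 of the 9 genes was higher at day 21 against day 7 (Crabp2) and 1 against day 2 (Cyp26b1). Centring each array on its median left 4 pathway genes higher at day 7 against day 2; the cause was not tested.

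Leaving out single arrays, which also leaves fewer arrays, 0 to 1 of the 9 genes was higher at day 21 against day 2, the 1 being Cyp26b1 without day 21 replicate 3. Pathway genes higher at day 7 against day 2 numbered 4 to 7 (4 without day 2 replicate 2, 5 without day 7 replicate 1), and those lower 2 to 4 (2 without day 2 replicate 2 or day 7 replicate 2). Higher at day 21 against day 2 were 5 to 11 (5 without day 2 replicate 1, day 2 replicate 2 or day 21 replicate 1, and 6 without day 21 replicate 2). Uncalled changes crossed 0 in ranges of -0.09 to 0.63 for Aldh1a1 and -0.25 to 0.14 for Rarb at day 7 against day 2, -0.08 to 0.34 for Aldh1a2 and -0.20 to 0.39 for Cyp26b1 at day 21 against day 7, and -0.12 to 0.07 for Rxra and -0.42 to 0.27 for Rxrg at day 21 against day 2.

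The labels number litters 1 to 3 on each day without saying that a number is the same litter. Deviations from day means correlated at -0.237 to 0.405 between same-numbered arrays and at -0.285 to 0.237 between others, so the numbers were not taken as pairs. With the replicate block 1 of the 9 genes was higher at day 7 than at day 2, 5 were lower at day 21 than at day 7 and 4 were lower at day 21 than at day 2, and no call of the 9 changed. Of the pathway list 7 rather than 8 were higher at day 7. Signal near the low end limits Aldh1a1, Rarb and Rxra and the dimmer probe sets of Adh1c, Cyp26b1 and Rxrg.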
